A study of Rattus norvegicus with 9 samples.

Results

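A list of 10 genes was followed over 9 arrays of rat artery because their signal in spontaneously hypertensive rats (SHR) stood far from that in both groups of the Wistar-Kyoto (WKY) strain, or because probesets of the same gene gave different answers. The 10 genes, Ptprj, Cbl, Pik3r1, Minpp1, Csnk2a1, Basp1, Sema4b, Prss35, Ythdf2 and Rtel1, were a fixed list out of 10412 genes that the array's annotation names with 1 symbol. They were chosen from their SHR values, so the differences of SHR from WKY and from ACTH-treated WKY are given as a description, with no test. The ACTH minus WKY contrast did not enter the written rule and is tested. The list was named for SHR-only shifts with that contrast known, so small values in it may also reflect the choice. They are read by 17 probesets, each a set of short probes whose brightness is summarised as 1 signal. Of these, 16 had a signal of at least 45 on 3 or more arrays and were kept, among 9038 kept probesets of all genes. For 7 of the 16, one side of the comparison had no array at 45, so those probesets passed only through the side on which they were high. Of the genes, 5 have 1 probeset and 5 have several, and probesets of a gene are not replicates of one another.

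The SHR group was untreated SHR, a strain in which high blood pressure is inherited. The ACTH group was WKY rats given ACTH, the pituitary hormone that drives adrenal steroid release, under the skin at 0.1 mg/kg/day for 4 weeks, and the WKY group was untreated. This dose is that of the sample labels, and the methods of the study give a different one. All rats were males of 16 weeks, the tissue was a first branch of the saphenous artery, and each of the 3 arrays of a group held RNA pooled from 2 to 3 rats. SHR and WKY are separate inbred strains, whereas the ACTH and WKY groups share one strain. Whether the probes of these 10 genes meet a different sequence in SHR was not tested.

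Several of the genes act on signals that arise at the cell membrane of artery cells. Receptor tyrosine kinases attract phosphoinositide 3-kinase through its regulatory subunits, receptor phosphatases remove the phosphates again, and ubiquitin ligases of the Cbl type send the receptors to be degraded. Other members work in the cytoskeleton, in cell contact, in RNA decay and in the copying of chromosome ends. The rest encode a secreted protein (Prss35), a kinase active in nearly all cells (Csnk2a1) and a phosphatase of inositols (Minpp1).

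The upstream sequences of Ptprj, Basp1 and Pik3r1 are printed because Ptprj and Basp1 had the lowest SHR minus WKY differences of the 10 genes and Pik3r1 the highest. Each is the RefSeq sequence (GRCr8) of the 250 bases before the annotated start, 5′ to 3′ on the gene's strand, with GC boxes (GGGCGG or CCGCCC, overlapping matches counted) in capitals. Ptprj lies at chr3:97017657-97017906, Basp1 at chr2:77594298-77594547 and Pik3r1 at chr2:34697661-34697910, all on the minus strand.
Ptprj: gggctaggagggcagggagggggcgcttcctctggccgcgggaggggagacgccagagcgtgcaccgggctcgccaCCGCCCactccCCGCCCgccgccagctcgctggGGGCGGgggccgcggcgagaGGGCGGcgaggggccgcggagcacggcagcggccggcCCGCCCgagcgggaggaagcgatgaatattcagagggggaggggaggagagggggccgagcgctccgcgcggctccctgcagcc
Basp1: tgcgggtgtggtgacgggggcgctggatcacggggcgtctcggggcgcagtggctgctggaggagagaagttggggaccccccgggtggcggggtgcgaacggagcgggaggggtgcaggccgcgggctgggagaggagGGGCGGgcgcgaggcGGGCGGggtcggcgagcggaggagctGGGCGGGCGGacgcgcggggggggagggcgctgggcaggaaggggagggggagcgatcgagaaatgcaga
Pik3r1: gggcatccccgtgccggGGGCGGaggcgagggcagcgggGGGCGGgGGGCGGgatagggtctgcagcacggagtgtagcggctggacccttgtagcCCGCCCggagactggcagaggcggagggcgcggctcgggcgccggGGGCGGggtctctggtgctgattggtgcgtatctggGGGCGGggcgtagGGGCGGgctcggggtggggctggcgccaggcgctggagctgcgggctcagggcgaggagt
Ptprj held 5 GC boxes, Basp1 held 4 and Pik3r1 held 7. Of 33469 rat promoters of this length, 30.5% held at least 1, and all 9 members in the promoter table (all but Prss35) did. The 9 had a GC content of 52.8 to 79.2%, against a median of 51.2% over all promoters. None of the 3 printed sequences held AGAACA or its reverse TGTTCT, the core to which the glucocorticoid receptor binds, which 17.5% of all promoters held. These matches describe letters in a window and were not set against the signals.

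**Figure D1:**
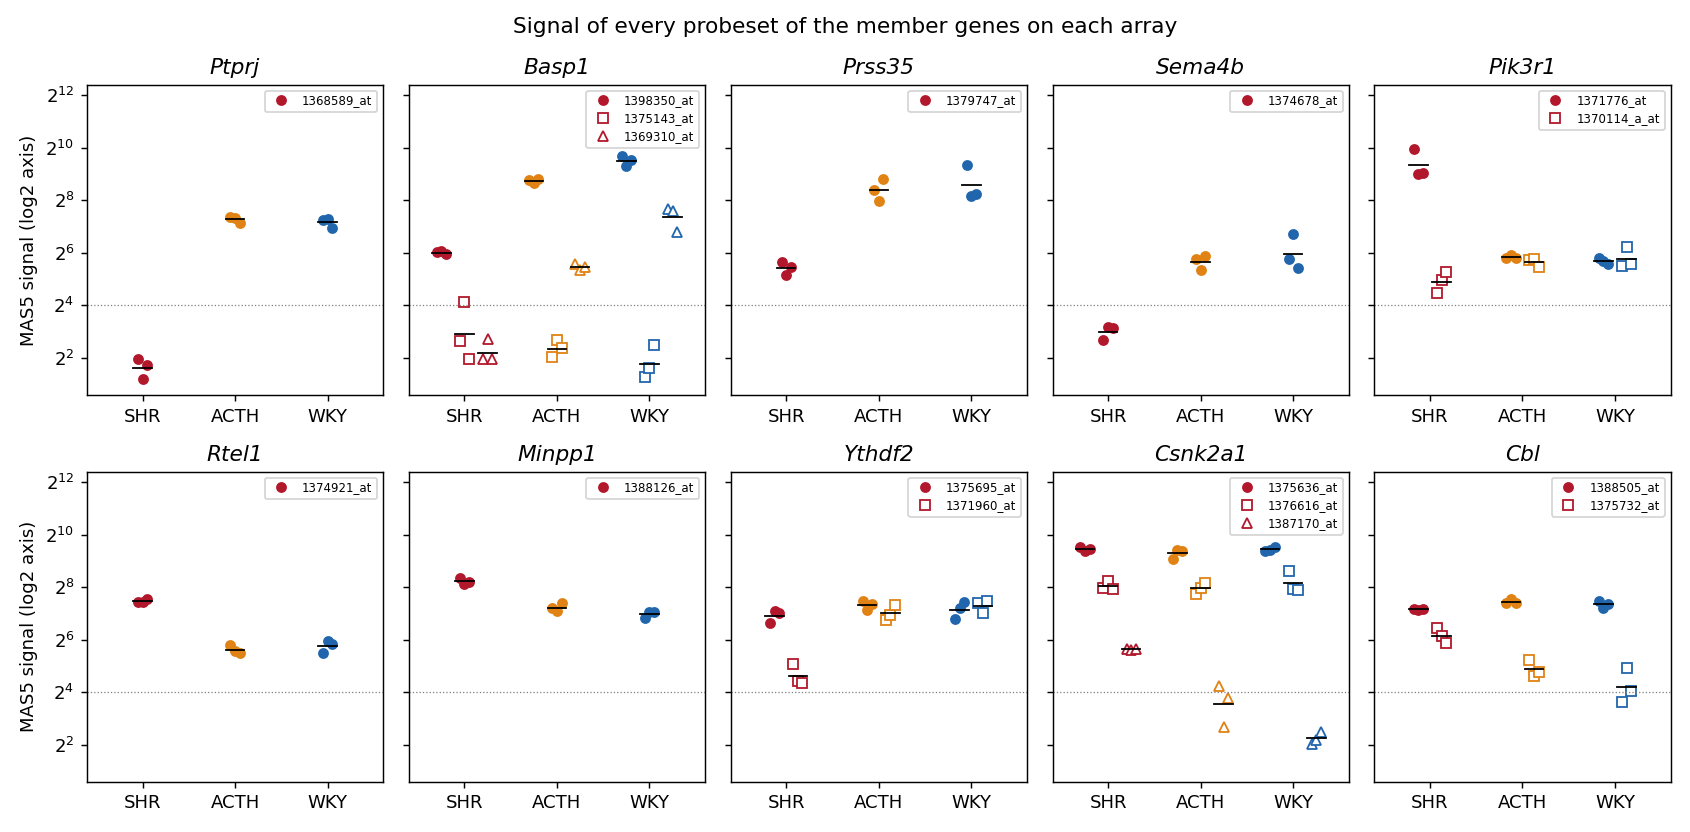
MAS5 signal (log2 axis) of all 17 probesets on each array, with SHR, ACTH and WKY from left to right, points for arrays and bars for the mean of log2 values (n = 3). The dotted line marks a signal of 16, and Ptprj lies between 2.27 and 3.88 on the SHR arrays.

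Ptprj encodes a receptor-type tyrosine phosphatase that removes phosphate from growth factor receptors. Its signal was 3.88, 2.27 and 3.30 on the SHR arrays, against 164, 163 and 141 on the ACTH arrays and 152, 157 and 125 on the WKY arrays. The SHR arrays were far below every array of the WKY strain, and ACTH and WKY overlapped. The SHR minus WKY difference of log2 signal was -5.55 ± 0.20 (SE, n = 3 each), and SHR minus ACTH was -5.66 ± 0.20. Between 23.9 and 30.1% of non-control probesets lay under 16 on an array, and signals in that range were given no order. With signals under 16 raised to 16, the SHR signal of Ptprj was at least 8.99-fold below WKY and at least 9.74-fold below ACTH. On the scan day that SHR 1 and SHR 2 shared with WKY 2 the difference was -5.73, and on the day of SHR 3 and the ACTH arrays it was -5.56. ACTH minus WKY was 0.12 ± 0.20 (limma, adjusted p = 0.878).

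Cbl encodes a ubiquitin ligase that marks activated tyrosine kinases for degradation. Its probeset 1375732_at gave 86.7, 70.6 and 59.0 in SHR, 37.7, 24.3 and 26.9 in ACTH, and 12.2, 30.1 and 16.3 in WKY. The SHR arrays were all above the other 6, while ACTH and WKY overlapped. SHR minus WKY was 1.97 ± 0.31 on the log2 scale and SHR minus ACTH 1.29 ± 0.31 (SE). Its other probeset, 1388505_at, read 142, 141 and 144 in SHR, 168, 187 and 170 in ACTH, and 177, 147 and 165 in WKY. On this probeset SHR was lowest, by -0.19 ± 0.13 against WKY and -0.29 ± 0.13 against ACTH. Relative to the WKY strain, the SHR arrays were thus clearly above on the first probeset and only slightly below on the second. Within the scan day shared with WKY 2 the first probeset differed by 1.38, and the second by -0.05. ACTH minus WKY of the first was 0.68 ± 0.31 (limma, adjusted p = 0.394).

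Pik3r1 encodes the p85 alpha regulatory subunit that holds the catalytic subunit of phosphoinositide 3-kinase and docks it on receptors. Probeset 1371776_at, which the study and not the array's annotation names as Pik3r1, read 997, 513 and 529 in SHR, 56.1, 60.1 and 55.9 in ACTH, and 55.9, 51.3 and 47.1 in WKY. The lowest SHR array was far above the highest array of the WKY strain, and SHR 1 stood above the other SHR arrays. SHR minus WKY was 3.66 ± 0.23 (SE), a 12.6-fold higher signal, and SHR minus ACTH 3.50 ± 0.23. The annotated probeset 1370114_a_at gave 22.2, 31.3 and 38.8 in SHR, 53.1, 54.7 and 44.3 in ACTH, and 45.1, 73.8 and 47.3 in WKY. It was lower in SHR on every array, with SHR minus WKY at -0.85 ± 0.24. For this probeset the value was -1.49 on the day shared with WKY 2 and -0.38 on the day shared with ACTH, and -0.29 with the GAPDH 3'/5' ratio of each array in the fit. The other probeset differed by 3.80 on the day shared with WKY 2 and by 3.20 on the day shared with ACTH. Neither probeset passed in ACTH minus WKY (limma, adjusted p = 0.849 for 1371776_at and 0.919 for 1370114_a_at).

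Minpp1 encodes a phosphatase of highly phosphorylated inositols. It read 328, 275 and 294 in SHR, 146, 136 and 167 in ACTH, and 114, 132 and 132 in WKY. The 3 groups did not overlap, and SHR was the brightest. The log2 signal of SHR exceeded that of WKY by 1.25 ± 0.14, with SHR minus ACTH at 1.00 ± 0.14 (SE), the smallest among the 10 genes when each is taken by its most shifted probeset. The difference was 1.19 within the day shared with WKY 2, and ACTH minus WKY was 0.24 ± 0.14 (limma, adjusted p = 0.557).

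Csnk2a1 encodes the catalytic alpha subunit of casein kinase 2, a kinase active in nearly all cells. Its 3 probesets differed. Probeset 1387170_at read 50.03, 48.9 and 50.2 in SHR, 18.7, 6.33 and 13.6 in ACTH, and 4.10, 4.52 and 5.64 in WKY. The SHR arrays lay above the other 6 and just over the minimum of 45. All WKY signals and those of ACTH 2 and ACTH 3 were under 16, so ACTH and WKY were given no order. With signals under 16 raised to 16, SHR was at least 3.11-fold higher than WKY and at least 2.95-fold higher than ACTH. Probeset 1375636_at read 730, 662 and 701 in SHR, 540, 687 and 669 in ACTH, and 671, 680 and 746 in WKY, and 1376616_at read 251, 298 and 244 in SHR, 212, 253 and 285 in ACTH, and 389, 246 and 236 in WKY. These 2 overlapped among all groups, with SHR minus WKY at -0.00 ± 0.14 and -0.10 ± 0.21. ACTH minus WKY of 1387170_at was 1.32 ± 0.32 (limma, adjusted p = 0.0959), and 1.76 without ACTH 2 (adjusted p = 0.0179), but these sizes rest on signals under 16, and with those raised to 16 ACTH was 1.05-fold of WKY. Within the shared scan days SHR stood 3.45 above WKY 2 and 2.10 above ACTH on the log2 scale. RefSeq lists 2 pseudogenes of this gene, Csnk2a1-ps1 on chromosome 10 and Csnk2a1-ps2 on chromosome 1, and which copies the probes meet was not tested.

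Basp1 encodes an acidic membrane protein related in sequence features to GAP43 that sits at the cell cortex near actin. Probeset 1398350_at, named by the study and not by the annotation, read 65.2, 66.6 and 62.0 in SHR, 433, 406 and 446 in ACTH, and 838, 628 and 738 in WKY. The 3 groups did not overlap, and SHR was lowest and WKY highest. SHR minus WKY was -3.50 ± 0.14, SHR minus ACTH -2.73 ± 0.14 and ACTH minus WKY -0.77 ± 0.14 (limma, adjusted p = 0.0299 for the last), and within the shared scan days SHR differed by -3.25 and -2.79. The annotated 1369310_at read 3.84, 6.49 and 3.85 in SHR, 48.1, 40.9 and 43.9 in ACTH, and 204, 194 and 111 in WKY, in the same order. SHR minus WKY was -5.16 ± 0.26, and with signals under 16 raised to 16 it was at least 10.2-fold below WKY and at least 2.76-fold below ACTH in SHR. ACTH minus WKY was -1.89 ± 0.26 (limma, adjusted p = 0.00799), 3.71-fold lower in ACTH. The remaining probeset, 1375143_at, was dim on all arrays, at 3.88 to 17.6 in SHR, 4.05 to 6.44 in ACTH and 2.38 to 5.55 in WKY, and was not kept.

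In the main fit Basp1 was thus not an SHR-only shift: its 2 kept probesets were lower in ACTH than in WKY. They were the only members to pass in that contrast. For 1369310_at all WKY arrays, but only ACTH 1 among the ACTH arrays, reached the minimum signal, so it was kept mainly through WKY. With all non-control probesets neither passed (limma, adjusted p = 0.101 for 1369310_at and 0.170 for 1398350_at). Over all 9038 kept probesets 113 passed in ACTH minus WKY, or 1.25%, of which 63 were lower (0.697%). No scan day held both an ACTH and a WKY array, so blocking by day compares them only through the SHR arrays and WKY 2. For 1369310_at those SHR signals were all under 16. The blocked values are thus no direct ACTH to WKY comparison and cannot separate treatment from day. With scan day as a block the ACTH difference was -1.76 for 1369310_at (adjusted p = 0.321) and -0.47 for 1398350_at (adjusted p = 0.622), and neither passed. Probeset 1398350_at also missed the threshold without WKY 1, WKY 3, SHR 2 or any 1 of the ACTH arrays (limma, adjusted p = 0.0522 to 0.130), whereas 1369310_at passed with each array left out (0.00699 to 0.0417). With the GAPDH ratio as a covariate neither passed (adjusted p = 0.188 each). The GAPDH 3'/5' ratio was 4.05 ± 0.436 in ACTH and 5.41 ± 0.541 in WKY (SD, n = 3), and its part in the difference was not tested apart from that fit.

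Sema4b encodes a membrane-bound semaphorin, a ligand of the plexin family of receptors. It read 6.47, 9.05 and 8.75 in SHR, 54.7, 41.1 and 58.6 in ACTH, and 54.0, 106 and 42.7 in WKY. All SHR arrays lay below the other 6, with ACTH and WKY overlapping. Its SHR minus WKY difference was -2.97 ± 0.30 (SE), -3.79 within the day shared with WKY 2, and with signals under 16 raised to 16 SHR was at least 3.91-fold lower than WKY and at least 3.18-fold lower than ACTH. ACTH minus WKY was -0.30 ± 0.30 (limma, adjusted p = 0.766).

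Prss35 encodes a secreted protein of the serine protease family. It read 50.1, 35.9 and 44.1 in SHR, 332, 251 and 447 in ACTH, and 647, 285 and 300 in WKY. The highest SHR array was far below the lowest of the other 6, and WKY 1 stood above the other WKY arrays. SHR minus WKY was -3.15 ± 0.31, -2.75 within the day shared with WKY 2, and SHR minus ACTH was -2.96 ± 0.31 (SE). ACTH minus WKY was -0.19 ± 0.31 (limma, adjusted p = 0.873).

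Ythdf2 encodes a reader of methylated adenosines in RNA that sends messages to decay. Probeset 1371960_at read 33.6, 21.7 and 20.2 in SHR, 108, 121 and 158 in ACTH, and 168, 129 and 177 in WKY. The SHR arrays lay below the other 6, by -2.67 ± 0.23 against WKY and -2.38 ± 0.23 against ACTH, and by -2.26 and -2.66 within the shared scan days. Probeset 1375695_at of the gene read 98.2, 135 and 129 in SHR, 175, 141 and 164 in ACTH, and 110, 149 and 172 in WKY. SHR overlapped WKY there, and SHR minus WKY was -0.24 ± 0.20. Neither passed in ACTH minus WKY (limma, adjusted p = 0.671 for 1371960_at and 0.789 for 1375695_at).

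Rtel1 encodes a DNA helicase that unwinds structures at chromosome ends. It read 173, 171 and 189 in SHR, 55.1, 46.9 and 44.5 in ACTH, and 45.2, 60.9 and 57.5 in WKY. Each SHR array was above all 6 others, and ACTH and WKY overlapped. In log2 signal SHR minus WKY was 1.71 ± 0.16 and SHR minus ACTH 1.87 ± 0.16 (SE), and within the shared scan days the differences were 1.496 and 1.96. ACTH minus WKY was -0.15 ± 0.16 (limma, adjusted p = 0.766).

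**Figure D2:**
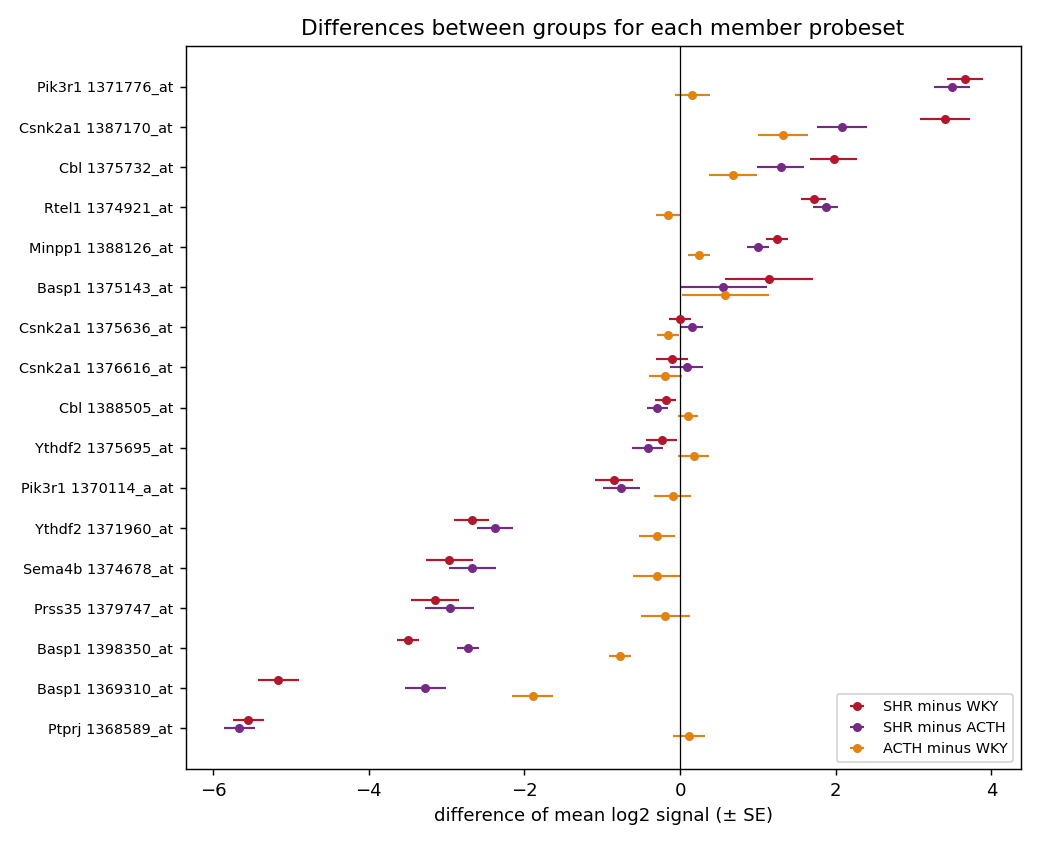
Difference of mean log2 signal ± SE (n = 3 arrays a group) for each of the 17 member probesets, as SHR minus WKY, SHR minus ACTH and ACTH minus WKY. Pik3r1 1371776_at lies at 3.66 and Ptprj at -5.55 in SHR minus WKY, while both lie near 0 in ACTH minus WKY, at 0.16 and 0.12.

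In 13 of the 16 kept member probesets the SHR arrays were all outside the other 6, against 9.56% of all kept probesets. The exceptions were Csnk2a1 1375636_at and 1376616_at and Ythdf2 1375695_at. The list was chosen on this contrast, so the count describes the choice. A log2 difference of at least 1 in either direction was reached by 11 of the 16 member probesets in SHR minus WKY (2.18% of all kept probesets). In ACTH minus WKY it was reached by 2 of the 16 (1.95% of all kept). These 2 were Basp1 1369310_at and Csnk2a1 1387170_at, and the Csnk2a1 value rests on signals under 16 (1.05-fold with those raised to 16). In ACTH minus WKY the ACTH arrays were all outside the WKY arrays for 5 member probesets, against 20.5% over all kept probesets. These 5 were Basp1 1369310_at and 1398350_at, Minpp1, Pik3r1 1371776_at and Csnk2a1 1387170_at, the last on signals mostly under 16.

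The disagreement between probesets was also read within each array, where the array's own scale cancels. Pik3r1 1371776_at minus 1370114_a_at was 5.49, 4.03 and 3.77 on the log2 scale in SHR, against 0.08, 0.14 and 0.33 in ACTH and 0.31, -0.52 and -0.00 in WKY. This difference between probesets of Pik3r1 was 4.50 larger in SHR than in WKY and 0.26 larger in ACTH than in WKY. The sizes from different probes say nothing of which gives more RNA, so only the shift between groups is read. Cbl 1375732_at minus 1388505_at was -0.72, -1.001 and -1.29 in SHR, -2.15, -2.94 and -2.66 in ACTH, and -3.86, -2.29 and -3.34 in WKY. Ythdf2 1371960_at minus 1375695_at was -1.55, -2.64 and -2.67 in SHR, -0.70, -0.22 and -0.06 in ACTH, and 0.62, -0.20 and 0.04 in WKY. In both genes the SHR arrays were apart from the other 6. Csnk2a1 1387170_at minus 1375636_at was -3.87, -3.76 and -3.81 in SHR, -4.85, -6.76 and -5.62 in ACTH, and -7.35, -7.23 and -7.05 in WKY. Basp1 1369310_at minus 1398350_at was -4.09, -3.36 and -4.01 in SHR, -3.17, -3.31 and -3.34 in ACTH, and -2.04, -1.70 and -2.73 in WKY. In Basp1 the ACTH arrays also stood away from WKY, while its SHR values rest on 1369310_at signals under 16. The WKY values of Csnk2a1, and those of ACTH 2 and ACTH 3, rest on signals under 16 as well.

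**Figure D3:**
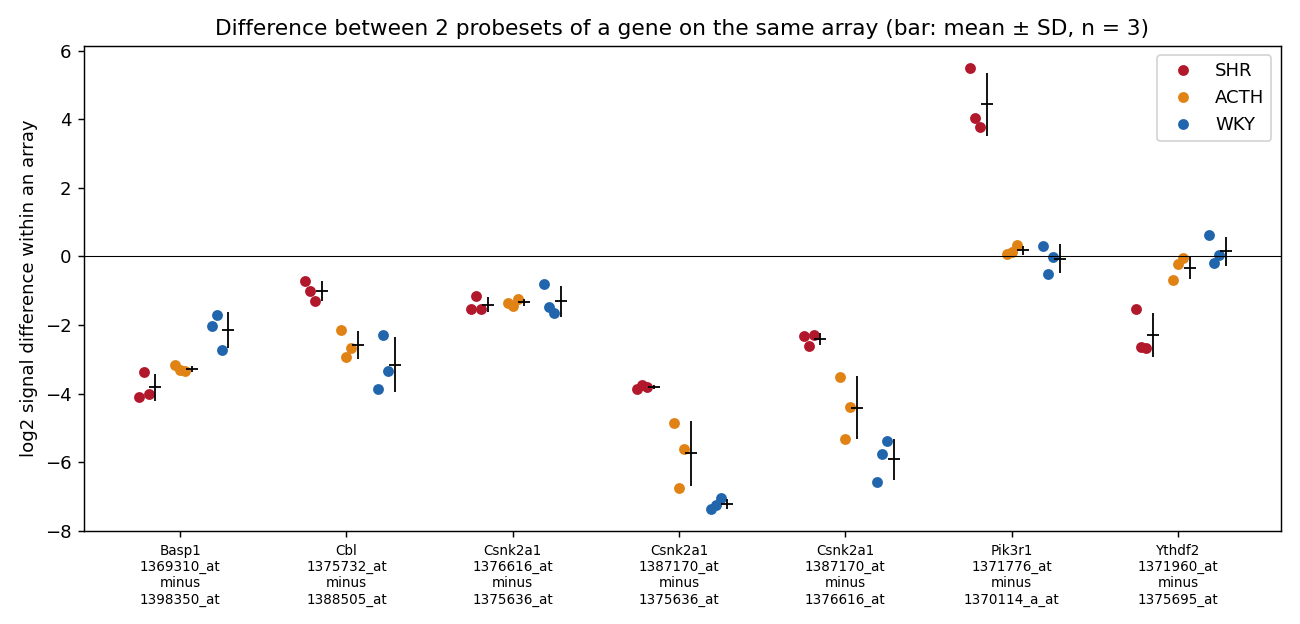
Log2 signal difference between 2 probesets of the same gene on each array (points), with mean ± SD (n = 3) for SHR, ACTH and WKY from left to right. For Pik3r1 the SHR arrays lie at 3.77 to 5.49, and the WKY arrays at -0.52 to 0.31.

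Over the 717 genes with 2 or more kept probesets the range of the differences was taken in each contrast. It passed 1 on the log2 scale in 33 genes (4.6%) for SHR minus WKY and in 10 genes (1.39%) for ACTH minus WKY, with medians of 0.287 for SHR minus WKY and 0.223 for ACTH minus WKY. Pik3r1, with 4.50, was at rank 2 in SHR minus WKY, after RT1-Ba (6.69), a class II histocompatibility gene. Pik3r1 and Basp1 are among the 717 only through 1371776_at and 1398350_at, which carry the study's name. No other gene was given a probeset beyond the array's annotation. The other members ranged over 3.50 (Csnk2a1), 2.44 (Ythdf2), 2.16 (Cbl) and 1.66 (Basp1). Disagreement between probesets in SHR was a reason for listing genes, so the members' ranges and ranks in SHR minus WKY describe the choice. Raising signals under 16 to 16, an alternative chosen after seeing the data, left the count at 33 genes and gave 4.50 for Pik3r1 (rank 2), 2.44 for Ythdf2 (rank 3), 2.03 for Cbl (rank 5) and 1.74 for Csnk2a1 (rank 6). Basp1 was then at 0.14 (rank 519), so its range in SHR minus WKY rests on dim signals. In ACTH minus WKY, within a strain and with the same floor, Basp1 had 1.12 (rank 9), and the others had 0.47 (Ythdf2), 0.45 (Cbl), 0.26 (Csnk2a1) and 0.26 (Pik3r1). Among the 351 genes with every probeset at a mean signal of at least 100, 9 (2.56%) passed 1 in SHR minus WKY, and of the 5 members only Ythdf2 was in that set.

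**Figure D4:**
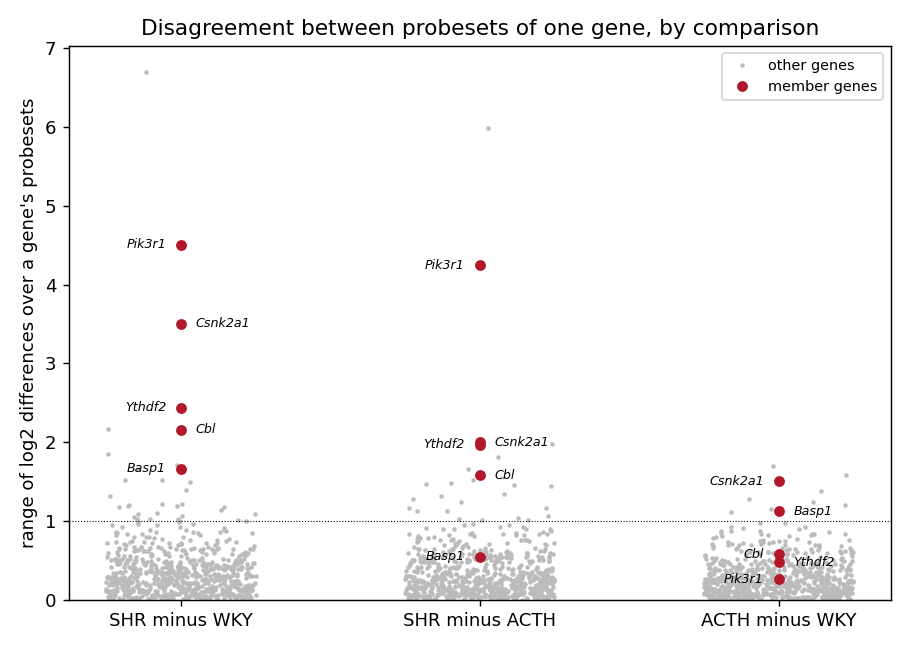
Range of the log2 differences over the kept probesets of a gene (y axis) for the 717 genes with 2 or more, by comparison, with the 5 member genes in red. No floor is applied. In SHR minus WKY the members run 1.66 to 4.50, against a median of 0.287 over all 717 genes. Such disagreement was a reason for listing them, so their place above the median describes the choice. The Basp1 value there and all Csnk2a1 values rest on signals under 16, as does WKY 1 for Cbl.

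Other genes of the members' families were looked at in 10 lists with 73 kept genes. By limma no probeset of these passed in SHR minus WKY (0 of 88), against 184 of 9038 (2.04%) over all kept probesets. An unadjusted p under 0.05 was reached by 9 of the 88, against 1482 of the 9038. The median difference was -0.04, and -0.004 over all kept probesets. Csnk2b, the regulatory subunit of casein kinase 2, differed by -0.09 ± 0.20, and Csnk2a2, the other catalytic subunit, 0.09 ± 0.14. Pik3ca, a catalytic subunit, was -0.03 ± 0.21 and Pik3r2, another regulatory subunit, -0.35 ± 0.17. The Ythdf2 relatives Ythdf1 and Ythdf3 were -0.17 ± 0.16 and 0.12 ± 0.18. Ptprs, a receptor phosphatase, was -0.76 ± 0.19 (limma, adjusted p = 0.0836). Without SHR 3 the plexin Plxnb1 passed at -0.94 (limma, adjusted p = 0.0401). In SHR minus ACTH, where 308 of 9038 (3.41%) passed, 1 of 88 did, a Marcks probeset, of a membrane protein family near Basp1. Its mean signal was 238 in SHR and 91.9 in ACTH (limma, adjusted p = 0.0212). The other kept Marcks probeset did not pass, at a mean of 113 in SHR and 98.4 in ACTH (0.20 ± 0.16, limma, adjusted p = 0.587).

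The genes whose profile over the 9 arrays was nearest to each member, by root-mean-square distance of centred log2 signals, were named by rule. Fry was among the nearest to Csnk2a1 (0.66) and Pik3r1 (0.88), and RT1-CE16, a class I histocompatibility gene, was nearest to Pik3r1 (0.62). RT1-Bb, a class II histocompatibility gene, was nearest to Ptprj (1.53), Basp1 (1.19) and Sema4b (0.57), and Arhgap32 was second to Ptprj (1.72), Basp1 (1.30), Prss35 (0.81) and Ythdf2 (0.55), after Cidea (0.78) for Prss35 and Stat3 (0.54) for Ythdf2. Rtel1 was near Tex2 (0.30) and Gstt3 (0.33), Minpp1 near Anxa3 (0.17) and Elp2 (0.18), Cbl near Ildr2 (0.31) and Tfpi (0.32), Csnk2a1 next near Creg1 (0.76) and Sema4b next near Cidea (0.63). The members' own centred profiles had a root-mean-square size of 2.65 for Ptprj, 2.16 for Basp1 and 0.55 for Minpp1. The genes nearest to Ptprj and Basp1 are thus loose matches. Distances for Ptprj, Basp1, Sema4b and Csnk2a1 also use member signals under 16, as does WKY 1 for Cbl. Some matched genes were dim too, such as RT1-CE16 (mean 12.9 in ACTH) and Arhgap32 (mean 11.7 in SHR).

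The 2 nearest kept genes on each side of every member in the RefSeq order were also compared, a choice made after the values were seen. Not all of them are close. Between Ptprj and its neighbours Ssrp1 and Timm10 lie 347 and 356 RefSeq genes, and between Basp1 and Drosha and Golph3 lie 60 and 65. Others, such as Mcam beside Cbl, have 0 between. Of their 48 probesets, for 40 genes, 1 passed in SHR minus WKY by limma (2.08%, against 2.04% over all kept), that of Srxn1 beside Csnk2a1 (1.05 ± 0.15, adjusted p = 0.00425). The neighbours ran -0.49 to 1.05 around a median of 0.01.

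The 9 arrays had trimmed means of 149.6 to 149.9. The ACTH arrays and SHR 3 were scanned on one day, SHR 1 and SHR 2 with WKY 2 on another, and WKY 1 and WKY 3 each alone. Smooth muscle markers (5 of 5 kept) summed to 16858 to 18368 in SHR, 14969 to 16561 in ACTH and 14754 to 17105 in WKY, and none passed in SHR minus WKY by limma. Endothelial markers (3 of 5 kept) summed to 782 to 973 in SHR, 1123 to 1350 in ACTH and 1334 to 1554 in WKY, and of these Vwf was lower in SHR than in WKY (-1.28 ± 0.21, limma, adjusted p = 0.0112), while Kdr (0.87 ± 0.19, adjusted p = 0.05004) and Pecam1 (0.54 ± 0.19, adjusted p = 0.206) did not pass. Macrophage markers (3 of 5 kept) summed to 660 to 1159 in SHR, 891 to 1376 in ACTH and 286 to 826 in WKY, and none passed in SHR minus WKY. Adipocyte markers (2 of 5 kept, with Lep and Plin1 dim) summed to 162 to 204 in SHR, 191 to 372 in ACTH and 47.1 to 184 in WKY, where Cfd passed in ACTH minus WKY (2.36 ± 0.45, limma, adjusted p = 0.0344). The skeletal marker Acta1 was higher in SHR than in WKY (0.92 ± 0.15, limma, adjusted p = 0.0102), and Ckm, Pvalb, Myh4 and Tnnt3 were not kept. Schwann cell markers (3 of 5 kept) summed to 1819 to 2202 in SHR, 1976 to 2118 in ACTH and 1489 to 2246 in WKY, and none passed. The part of these cell types in the members' values was not tested, and fewer cells of a type and less RNA per cell cannot be told apart in such tissue.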

How the data were processed

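Rat artery RNA was measured on 9 Affymetrix RAE230A arrays, 3 each of SHR, ACTH-treated WKY and WKY. The authors computed 1 signal intensity per probeset with MAS5, scaled each array to a target of 150 and deposited the intensity values on a linear scale, without detection calls. Of 15923 probesets 57 were controls, and 9038 of the other 15866 had a signal of at least 45 on 3 or more arrays and were kept, a filter set here. Probeset names came from the platform annotation, updated by gene identifier against RefSeq (12754 of 12789 matched, 0 changed), and 2 member probesets carry the study's name. Log2 signals of all 9 arrays were fitted with limma 3.58.1 in R 4.3.3 (eBayes without trend), with Benjamini-Hochberg adjustment across all kept probesets and a threshold of 0.05. The fit was tested on simulated data. The members, lists and tests were chosen with earlier results of these data known. Named genes were all member probesets, their 2 nearest profiles, and related genes that passed. The related genes named without passing, and genomic neighbours, were chosen after their values were seen. Promoter sequences are from RefSeq (GRCr8). Replicate numbers did not pair the arrays: same-number pairs correlated at -0.072 to 0.132. With 3 arrays of pooled rats per group, p-values measure only the spread between pools, and the number of arrays limits the precision. Alternatives were other filters, scalings, covariates, blocks and tests and each array left out. The study's own tables of calls and values were not used here.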

Additional observations from a re-analysis of the deposited data

How the results depend on the processing

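For the most shifted probeset of each member the SHR minus WKY difference kept its sign in all alternatives run, from -5.73 to -3.06 for Ptprj, 3.30 to 3.82 for Pik3r1 1371776_at and 1.64 to 3.53 for Csnk2a1 1387170_at, the smaller sizes where dim signals were raised or 16 was added. Counts moved more. SHR minus WKY passed 184 probesets, 72 with all non-control probesets, 36 with the GAPDH ratio, 25 where scan day was blocked, 97 in a fit of both groups alone, 90 by the methods' unmoderated contrasts, and 100 to 225 with an array left out. SHR minus ACTH passed 308, 52 with all non-control, 34 with scan day, 120 with the methods' test and 108 to 322 with an array left out, and median centring moved the split to 203 higher and 134 lower, against 140 and 168. ACTH minus WKY passed 113, 0 with all non-control (though 1434 had an unadjusted p below 0.05), 0 with GAPDH as covariate (783), 0 with scan day (858), 5 with the methods' test and 34 to 136 with an array left out. Its split was 50 higher and 63 lower, and 46 and 86 with median centring, and 91 and 45 without WKY 2. Of the 2 Basp1 calls in ACTH minus WKY, 0 remained under all non-control probesets, the GAPDH ratio, scan day and the methods' test, 1 at a mean signal of 100, with groups alone and with the replicate block, and 1 to 2 with an array left out. The related genes passing in SHR minus WKY were 0 to 1. Genes with a probeset range over 1 numbered 33, 33 with signals under 16 raised to 16 and 9 at a mean signal of at least 100. With the replicate block, whose numbers do not pair the arrays, 156, 256 and 97 probesets passed in SHR minus WKY, SHR minus ACTH and ACTH minus WKY. In SHR minus WKY the small values of Csnk2a1 changed sign, 1376616_at running -0.23 to 0.15 and 1375636_at -0.03 to 0.05. In ACTH minus WKY only values that did not pass changed sign. With scan day these were 0.18 for Csnk2a1 1376616_at, 0.18 for Prss35, -0.17 for Ptprj, 0.40 for Ythdf2 1371960_at and -0.057 for Ythdf2 1375695_at. No scan day held both ACTH and WKY, so that fit compares them only through the SHR arrays and WKY 2. Its counts and values are thus no direct ACTH to WKY comparison, and the Ptprj value rests on SHR signals under 16. With the GAPDH ratio the changed values were 0.52 for Pik3r1 1370114_a_at, -0.081 for Pik3r1 1371776_at and 0.11 for Sema4b. With an array left out the range was -0.32 to 0.042 for Csnk2a1 1376616_at, -0.23 to 0.13 for Pik3r1 1370114_a_at, -0.40 to 0.19 for Prss35, -0.57 to 0.083 for Sema4b and -0.0037 to 0.32 for Ythdf2 1375695_at. The cause was not tested. Dim signals limit Ptprj, Sema4b, Basp1 1369310_at and Csnk2a1 1387170_at to bounds.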
